A study of Mus musculus with 13 samples.

Results

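The 35 genes described here are a set of macrophage genes, chosen by symbol from a table of read counts for 24394 gene symbols in 13 RNA-seq libraries of mouse cells. All 35 symbols were found in the table. They were split by what is known of them. Ctsk, Lgmn, Apoe, Cd36, Cd68 and Cd14 (6 genes) are also made by fibroblasts or epithelia, and Ptprc, Coro1a, Laptm5 and Fcer1g (4 genes) are made by many leukocytes, T cells included. The other 25 are called restricted here. The word does not mean macrophages alone, as platelets make Ppbp and Pf4 and other leukocytes make Fcgr3.

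The series follows primary mouse embryonic fibroblasts (MEF) that carry 1 copy of iFoxn1, a Cre-inducible form of Foxn1, the transcription factor that defines thymic epithelium. Untreated MEF (E13.5, 2 libraries) were compared with induced thymic epithelial cells (iTEC), made by introducing a Cre plasmid by nucleofection. The iTEC were taken at day 2 (2 libraries), day 10 (3 libraries) and day 12 after Cre. Those of day 12 are labelled Epcam-negative or Epcam-positive (2 libraries each). Fetal thymic epithelial cells (fetal TEC, E15.5, 2 libraries) were also compared. The fibroblasts were grown in serum for no more than a handful of passages, and transfected cells were sorted by flow cytometry on markers that the labels do not name. One protocol is given for all 13 samples, no genotype is given apart from it, and nothing says whether replicates came from separate embryos, cultures or sorts, so p-values measure only the spread between these libraries. The headers of the untreated columns name the MEF group but not which MEF sample each is.

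Macrophages are phagocytes that settle in embryonic organs early, first from yolk sac and then from fetal liver precursors. Their identity rests on the transcription factor PU.1, encoded by Spi1, and on signalling from the receptor Csf1r, whose ligands Csf1 and Il34 are made by stromal and epithelial cells. A culture grown from a minced embryo can carry them along with the fibroblasts, and in the fetal thymus they clear dying thymocytes next to the epithelium.

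PU.1 binds a purine-rich box with the core GAGGAA. The 250 bases before the start site were searched for GAGGAA on both strands (it reads TTCCTC when it lies on the other strand) in the RefSeq promoter table for GRCm38.p6, which held 28 of the 35 genes. The letters were present in 17 of 28 promoters (60.7%), in 12 of 19 restricted ones (63.2%), and in 23.1% of all 27025 promoters in the table. For comparison, TTGCNNAA, the core of C/EBP sites, was present in 4 of 28 (14.3%) against 9.55% of all promoters. A match of letters is a description and does not show binding.

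Promoters are shown for C1qb, Stab1 and Itgam, which were high in MEF and low or absent in the cultures, and for the neighbours Pf4 and Ppbp, which went separate ways. Each is 250 bases long, written 5′ to 3′ on the gene's strand up to the base before the start site, with GAGGAA or TTCCTC in capitals. The windows are C1qb at chr4:136886201-136886450, minus strand; Stab1 at chr14:31168642-31168891, minus strand; Itgam at chr7:128062390-128062639, plus strand; Pf4 at chr5:90772185-90772434, plus strand; and Ppbp at chr5:90768268-90768517, plus strand.
C1qb: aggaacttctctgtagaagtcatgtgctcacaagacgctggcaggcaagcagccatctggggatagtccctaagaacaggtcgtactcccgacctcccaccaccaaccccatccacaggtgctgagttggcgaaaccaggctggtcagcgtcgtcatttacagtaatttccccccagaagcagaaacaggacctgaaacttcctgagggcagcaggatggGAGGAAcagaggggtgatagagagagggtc
Stab1: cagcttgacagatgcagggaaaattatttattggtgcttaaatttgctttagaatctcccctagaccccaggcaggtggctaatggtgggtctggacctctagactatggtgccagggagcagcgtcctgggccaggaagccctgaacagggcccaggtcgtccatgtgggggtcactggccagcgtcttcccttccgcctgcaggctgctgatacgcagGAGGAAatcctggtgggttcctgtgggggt
Itgam: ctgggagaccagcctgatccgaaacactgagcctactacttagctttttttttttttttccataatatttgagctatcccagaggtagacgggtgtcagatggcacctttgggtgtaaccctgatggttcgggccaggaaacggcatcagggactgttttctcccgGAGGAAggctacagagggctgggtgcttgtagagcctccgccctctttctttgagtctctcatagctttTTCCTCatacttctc
Pf4: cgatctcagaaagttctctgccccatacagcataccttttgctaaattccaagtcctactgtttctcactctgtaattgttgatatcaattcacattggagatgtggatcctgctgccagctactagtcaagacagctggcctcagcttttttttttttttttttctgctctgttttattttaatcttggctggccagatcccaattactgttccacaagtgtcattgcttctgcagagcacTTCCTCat
Ppbp: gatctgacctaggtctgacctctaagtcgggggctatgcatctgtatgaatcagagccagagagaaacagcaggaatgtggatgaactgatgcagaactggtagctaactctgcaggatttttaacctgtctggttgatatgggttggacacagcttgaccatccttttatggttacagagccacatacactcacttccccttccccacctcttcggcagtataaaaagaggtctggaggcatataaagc
The box began 30 bases before the start of both C1qb and Stab1, and 8 bases before that of Pf4. Itgam held it once on each strand. Pf4 and Ppbp lie on chromosome 5 with 2371 bases between them, and the window of Ppbp did not hold these letters.

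Library totals ranged from 35805780 to 86465460 counts, so 3 counts in a library, taken here as the floor of detection, were worth 0.03 to 0.0776 CPM (CPM is the count as a fraction of the library's total after TMM scaling, put to a common depth). Both fetal TEC libraries and Epcam-positive replicate 2 stood apart. Counts had no rise with transcript length there (Spearman rho across genes -0.0655 to -0.00392) against 0.292 to 0.337 in the other 10, and Gapdh, which every cell uses, stood at 128 to 188 CPM against 0 to 7.2 CPM. A count of 0 can therefore be a matter of counting, and differences between these 3 libraries and the rest carry this split. Xist, which is transcribed from the inactive X, was high in MEF and Epcam-negative libraries (688 to 2480 CPM). Y-linked genes summed to 0 to 0.0144 CPM there. In day 2, day 10 and Epcam-positive libraries Xist was at most 1.27 CPM and Y-linked genes summed to 65.6 to 302 CPM. These 2 sets of cultures thus differ in the sex of their cells, and comparisons between them carry this split too. Epcam itself reached 312 and 574 CPM in fetal TEC, only 4.8 and 30.6 CPM in the 2 libraries labelled Epcam-positive, and 0 in MEF.

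**Figure D1:**
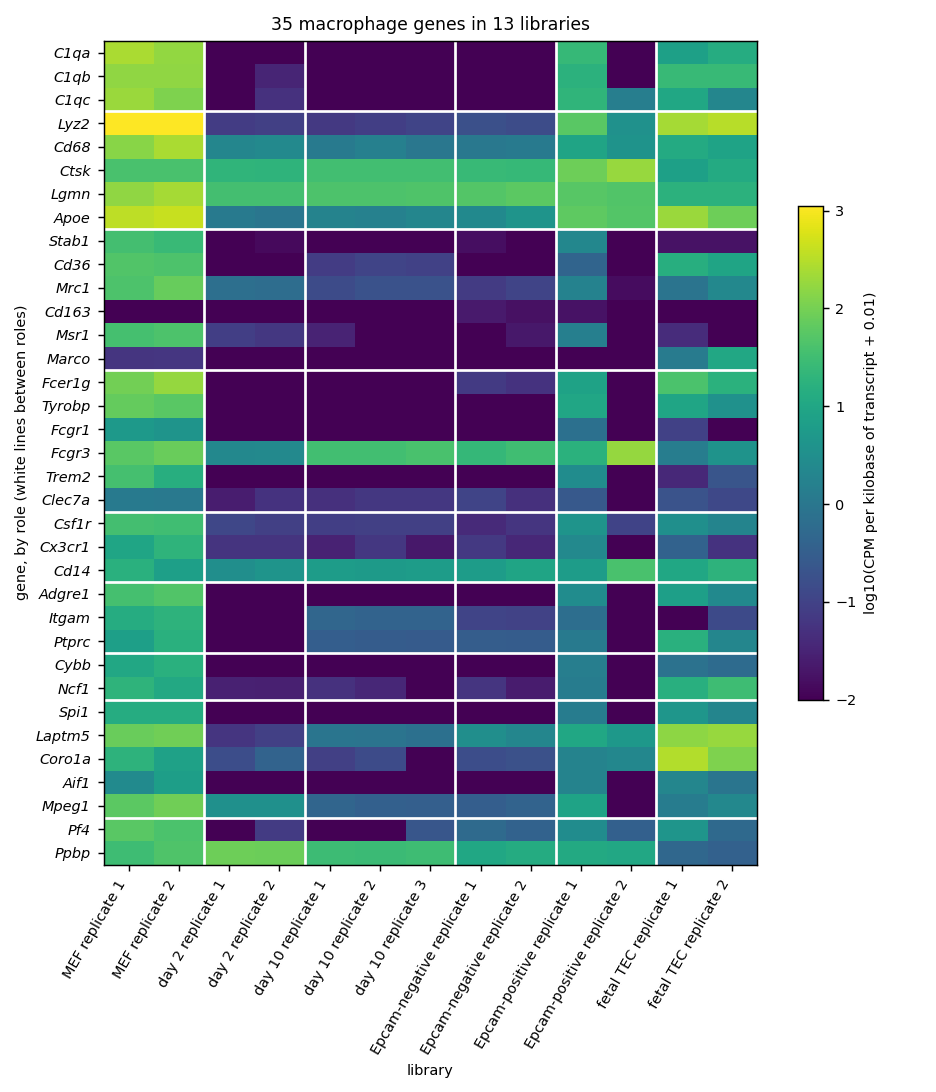
Level of each of the 35 genes (rows, grouped by role) in each of the 13 libraries (columns), as log10 of CPM per kilobase of transcript plus 0.01. The 2 MEF columns are bright for all but Marco and Cd163, the day 2, day 10 and Epcam-negative columns are dark for most, and Epcam-positive replicate 1 differs from replicate 2.

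Untreated MEF held a broad macrophage programme. The 35 genes took 0.554% and 0.553% of all counts in the 2 MEF libraries, and 34 of them had more than 3 counts in each. Cd163, the receptor for haemoglobin bound to haptoglobin, was at 0 in both. Per kilobase of transcript, which allows genes to be compared, Lyz2, the lysozyme of myeloid cells, had the highest mean MEF level of the set at 1100 CPM per kilobase, followed by the lipid carrier Apoe at 388. The 3 chains of complement C1q, the recognition unit of the classical pathway, came next, together with the lysosomal glycoprotein Cd68 and the protease Lgmn. C1qa stood at 214, C1qb at 165 and C1qc at 158 CPM per kilobase, Cd68 at 204 and Lgmn at 199.

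Receptors for uptake were also well counted in MEF. The mannose receptor Mrc1 stood at 238 and 412 CPM, the scavenger receptor Stab1 at 284 and 210 CPM, and Msr1, scavenger receptor A, at 135 and 162 CPM. Marco, a scavenger receptor of selected macrophages such as those of the spleen's marginal zone, was near the floor (0.0967 and 0.1 CPM). Csf1r stood at 163 and 150 CPM, Adgre1, which encodes the F4/80 antigen, at 117 and 154 CPM, and Itgam, the alpha chain of the integrin CD11b/CD18, at 63.3 and 88.1 CPM. These are all defining genes of tissue macrophages, and each was within 2-fold between the MEF libraries.

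Signalling partners and effector genes completed the picture. Fcer1g, the chain shared by activating Fc receptors, stood at 64.4 and 120 CPM, and Tyrobp, the adaptor of Trem2, at 42.7 and 33.6 CPM. Trem2, a lipid-sensing receptor, stood at 39.8 and 16 CPM, Fcgr1, the high-affinity IgG receptor, at 14.2 and 10.8 CPM, and Clec7a, the beta-glucan receptor, at 2.74 and 2.49 CPM. The oxidase subunit Cybb stood at 49.7 and 74.7 CPM and its activator Ncf1 at 55.8 and 31.7 CPM. Spi1 stood at 27.1 and 27.5 CPM and Mpeg1, the pore-forming perforin-2, at 266 and 383 CPM. Cx3cr1, the fractalkine receptor, was the least even of these with Trem2, at 40.9 and 86.7 CPM.

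At day 2 after Cre most of these genes were at or near the floor. The summed level of the 35 genes went from 5430 and 6010 CPM in MEF to 225 and 222 CPM, and that of the 23 restricted genes other than Fcgr3 and Ppbp from 3730 and 3800 CPM to 19.9 and 19.6 CPM (the 2 were set aside after their values were seen). By edgeR's quasi-likelihood test with Benjamini-Hochberg adjustment, 18 of the 34 genes tested were lower and 0 higher, against 5.52% of all genes called in either direction. Leaving out 1 library moved the count: to 33 of 34 without Epcam-positive replicate 1 or 2, to 8 without MEF replicate 1 or 2, to 5 without day 2 replicate 1 or 2, and to 11 without day 10 replicate 1 or 2 or an Epcam-negative replicate. The median log2 difference was -10.29, or -9.45 with genes at 0 set to their bound, against 0 over all genes. Fewer macrophages and less RNA per macrophage cannot be told apart in bulk RNA. Foxn1, nucleofection, sorting and the Xist and Y-linked split between MEF and day 2 cannot be told apart in this design either.

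The genes that fell with the smallest p were counted in every library and so have measured, not bounded, changes. Laptm5, a lysosomal membrane protein of leukocytes, went from 203 and 233 CPM to 0.127 and 0.208 CPM (log2 -10.31 ± 0.58 SE, adjusted p = 4.68e-05). Apoe went from 502 and 591 CPM to 1.69 and 1.34 CPM (log2 -8.50 ± 0.56, adjusted p = 0.000116), and Cd68 from 179 and 323 CPM to 2.52 and 2.88 CPM (log2 -6.54 ± 0.55, adjusted p = 0.000251). In each of the 3 the groups lay far apart, and the call held in all 13 fits that left out 1 library. Csf1r went from 163 and 150 CPM to 0.508 and 0.377 CPM (log2 -8.47 ± 1.48, adjusted p = 0.00989, and up to 0.131 without a day 2 library).

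Many restricted genes had no count at all. C1qa, Adgre1, Cybb, Spi1, Tyrobp, Trem2, Fcgr1, Aif1 and Marco (9 genes) were at 0 in all 7 libraries of day 2, day 10 and Epcam-negative cells, and 12 of the 35 never passed 3 counts there. Against a floor of 3 counts over the day 2 group, C1qa was at least 9813-fold lower than in MEF and Adgre1 at least 5960-fold lower, although neither passed the test at day 2 (adjusted p = 0.0867 and 0.0769) except without an Epcam-positive library. The fatty acid receptor Cd36, also at 0, was at least 6724-fold lower (adjusted p = 0.00789, and up to 0.0737 without a day 2 library). A value of 0 is limited by depth: it allows up to 3 counts.

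After Ppbp, Mpeg1 was the best counted restricted gene at day 2. It stood at 15.1 and 15 CPM at day 2, then at 1.9, 1.46 and 1.4 CPM at day 10 and 1.35 and 1.7 CPM in Epcam-negative cells. The day 2 libraries lay between MEF and the libraries of day 10 and Epcam-negative cells with no overlap, but neither step was called with all libraries (adjusted p = 0.215 against MEF and 0.196 from day 2 to day 10), and both were called without Epcam-positive replicate 1 or 2. Mrc1 followed the same order of levels, at 3.65 and 3.36 CPM at day 2, 0.728 to 0.974 CPM at day 10 and 0.345 and 0.52 CPM in Epcam-negative cells. It takes up mannose-bearing glycoproteins in macrophages and in some endothelia.

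By day 10, 28 of 34 genes were lower than in MEF and 0 higher, against 16.0% of all genes called. The median log2 difference was -8.99, or -8.80 with genes at 0 set to their bound, against 0 over all genes, and the count was 14 to 29 when 1 library was left out: 17 and 14 without MEF replicate 1 and 2, and 16, 17 and 16 without day 10 replicate 1, 2 and 3. By role, 3 of 3 C1q chains, 4 of 5 lysosomal and lipid genes, 4 of 5 scavenger receptors tested, 5 of 6 Fc receptor and adaptor genes, 2 of 2 oxidase genes and 5 of 5 intracellular genes were lower. Only 6 were not called: Fcgr3, Ppbp, Ctsk, Cd14, Itgam and Marco.

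Lyz2 and the receptors Csf1r, Mrc1 and Stab1 were below 1 CPM in all 3 day 10 libraries. The surface genes Fcgr3, Cd14, Itgam and Ptprc were above 1 CPM in all 3. Lyz2 stood at 0.0774, 0.102 and 0.129 CPM (log2 -13.79 ± 1.20 against MEF, adjusted p = 0.00013). Csf1r stood at 0.356, 0.384 and 0.388 CPM (log2 -8.70 ± 1.24, adjusted p = 0.00164) and Mrc1 at 0.877 ± 0.131 CPM (SD, n = 3; log2 -8.53 ± 1.48, adjusted p = 0.00453). Stab1 was at 0 in all 3, at least 11710-fold lower than in MEF over the group (adjusted p = 0.00875). No library decided the calls of Lyz2, Csf1r, Mrc1 and Stab1.

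Coro1a, an actin-binding protein of leukocytes, had its call on few counts. It stood at 0.139, 0.231 and 0 CPM at day 10 against 32.4 and 13.6 CPM in MEF (log2 -7.50 ± 0.92, adjusted p = 0.000688). Pf4, a chemokine of platelets that tissue macrophages also make, went from 33.5 and 24.7 CPM in MEF to 0, 0 and 0.129 CPM (log2 -9.48 ± 1.72, adjusted p = 0.00563). C1qa and Adgre1 were at 0 and called (adjusted p = 0.0274 and 0.0237), but each lost the call without either MEF library, any day 10 library or either fetal TEC library.

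Epcam-negative cells at day 12 also held little RNA of most restricted genes. The 23 restricted genes other than Fcgr3 and Ppbp summed to 3.56 and 3.59 CPM, against 5.57, 5.2 and 4.99 CPM at day 10. With these 2 genes the sums were 45.4 and 61.1 CPM, against 82, 80.8 and 92.3 CPM. All 35 genes summed to 207 and 243 CPM, against 239, 234 and 250 CPM at day 10. In these cells 22 of 34 genes were lower than in MEF and 0 higher, against 11.9% of all genes called, and 6 to 32 with 1 library left out: 6 and 8 without Epcam-negative replicate 1 and 2, 12 and 11 without MEF replicate 1 and 2. The Epcam-negative libraries, like those of MEF, were high in Xist. In the other comparisons with MEF the groups differ in Xist and Y-linked genes. The part of this difference cannot be told apart there. Lyz2 stood at 0.216 and 0.18 CPM (log2 -12.83 ± 1.39, adjusted p = 0.000462), and Apoe at 3.58 and 5.8 CPM (log2 -6.86 ± 0.52, adjusted p = 7.2e-05).

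**Figure D2:**
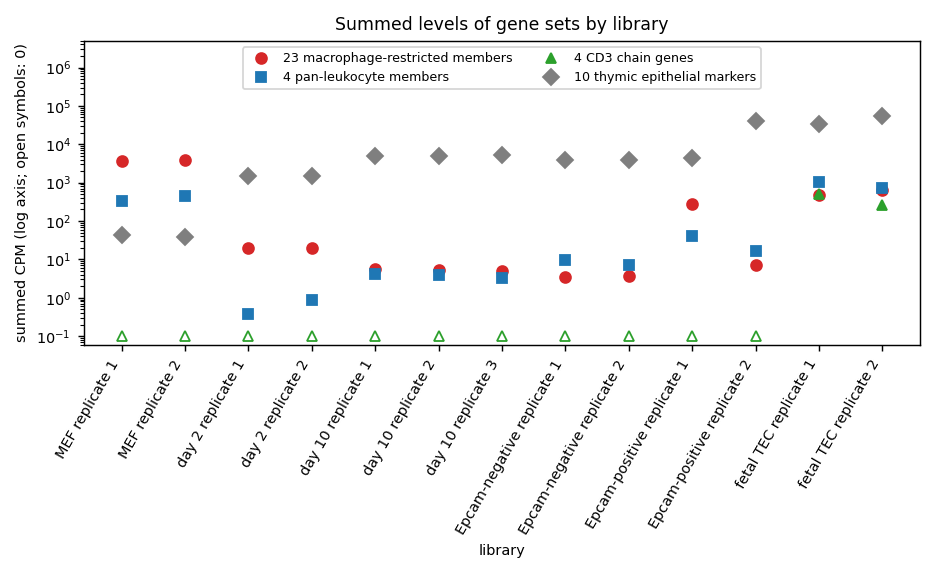
Summed CPM (log axis, open symbols at 0) in each library of the 23 restricted genes other than Fcgr3 and Ppbp, the 4 pan-leukocyte genes, the 4 CD3 chain genes of T cells and 10 thymic epithelial markers. The restricted genes stand at 3730 and 3800 CPM in MEF, stand below 20 CPM in the 7 libraries of day 2, day 10 and Epcam-negative cells, and reach 284 CPM in Epcam-positive replicate 1 but 7.09 CPM in replicate 2.

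A minority of the set stayed well counted in the cultures. Over 1 CPM in all 7 libraries of day 2, day 10 and Epcam-negative cells were 8 genes: Cd68, Ctsk, Lgmn, Apoe, Cd14, Fcgr3, Mpeg1 and Ppbp. The first 5 of these belong to the 6 genes known from fibroblasts or epithelia, and the exception of that class was Cd36, at 0 to 0.333 CPM. Ctsk, cathepsin K, a collagen-degrading protease of osteoclasts and fibroblasts, had no called difference between MEF (59.7 and 61.5 CPM) and day 10 (50.2, 49.7 and 50 CPM; log2 -0.28 ± 0.34, adjusted p = 0.663). Lgmn, the endosomal protease legumain, was lower at day 2 (69.4 and 68.2 CPM against 319 and 471 CPM; log2 -2.52 ± 0.28, adjusted p = 0.000858) and at day 10 (88.1, 85.8 and 90.4 CPM; log2 -2.17 ± 0.24, adjusted p = 0.000354), a far smaller fall than that of Lyz2.

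Fcgr3, a low-affinity IgG receptor of macrophages and other leukocytes, fell and came back. It ranged from 77 to 105 CPM in MEF, then 3.08 and 3.13 CPM at day 2, 45.6, 45.5 and 53.7 CPM at day 10 and 30.7 and 43.5 CPM in Epcam-negative cells. The fall at day 2 passed the test (log2 -4.87 ± 0.98, adjusted p = 0.0197), as did the rise from day 2 to day 10 (log2 3.96 ± 0.91, adjusted p = 0.02). Each depends on single libraries: adjusted p reached 0.186 for the fall (its call went without any 1 of the MEF and day 2 libraries) and 0.179 for the rise (its call went without either day 2 library or day 10 replicate 3). Fcgr3 shares long stretches of sequence with Fcgr2b, the inhibitory receptor, so reads may be split between them, and no source used here says how shared reads were counted. Fcgr2b stood at 20 and 35.3 CPM in MEF and at 0 in all day 2, day 10 and Epcam-negative libraries, and Fcgr1 was at 0 in them too.

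From day 2 to day 10, 3 of 34 genes were called, no larger a share than the 12.6% of all genes: Fcgr3 and Laptm5 were higher and Ppbp lower. Laptm5 rose from 0.127 and 0.208 CPM to 2.37, 2.23 and 1.89 CPM (log2 3.66 ± 0.44, adjusted p = 0.000732) and stood at 7.95 and 5.48 CPM in Epcam-negative cells, still below MEF (log2 -5.02 ± 0.45, adjusted p = 0.000173). Without either day 2 library the count was 1, and without either Epcam-positive library 9. Itgam went from 0 in both day 2 libraries to 2.12, 1.82 and 1.84 CPM, at least 84.8-fold higher over the group, but did not pass (adjusted p = 0.0708) except without an Epcam-positive or a fetal TEC library.

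Ppbp and Pf4, neighbours on chromosome 5, parted in the cultures. Ppbp, the platelet basic protein precursor, stood at 32.7 and 48.8 CPM in MEF, 92.5 and 89.4 CPM at day 2, 30.8, 30.1 and 33.6 CPM at day 10, and 11.1 and 14 CPM in Epcam-negative cells. The day 2 libraries were the highest of the 13, without passing the test against MEF (log2 1.16 ± 0.30, adjusted p = 0.053) except without an Epcam-positive or a fetal TEC library, and the fall to day 10 passed (log2 -1.53 ± 0.27, adjusted p = 0.00483, but 0.063 without a day 2 library at most). In Epcam-negative cells it was lower than in MEF (log2 -1.70 ± 0.30, adjusted p = 0.00617, and 0.0911 without Epcam-negative replicate 1). Pf4 was never above 0.316 CPM in these 7 libraries. A list of 10 megakaryocyte or platelet genes, which holds both chemokines, summed to 84.4 and 81.6 CPM in MEF with 7 and 6 genes over 3 counts, among them Gp1bb at 14.8 and 6.74 CPM, while Gp9 and Gp6 were at 0. The list summed to 95.5 and 92.8 CPM at day 2, and its part in the chemokine levels was not tested.

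**Figure D3:**
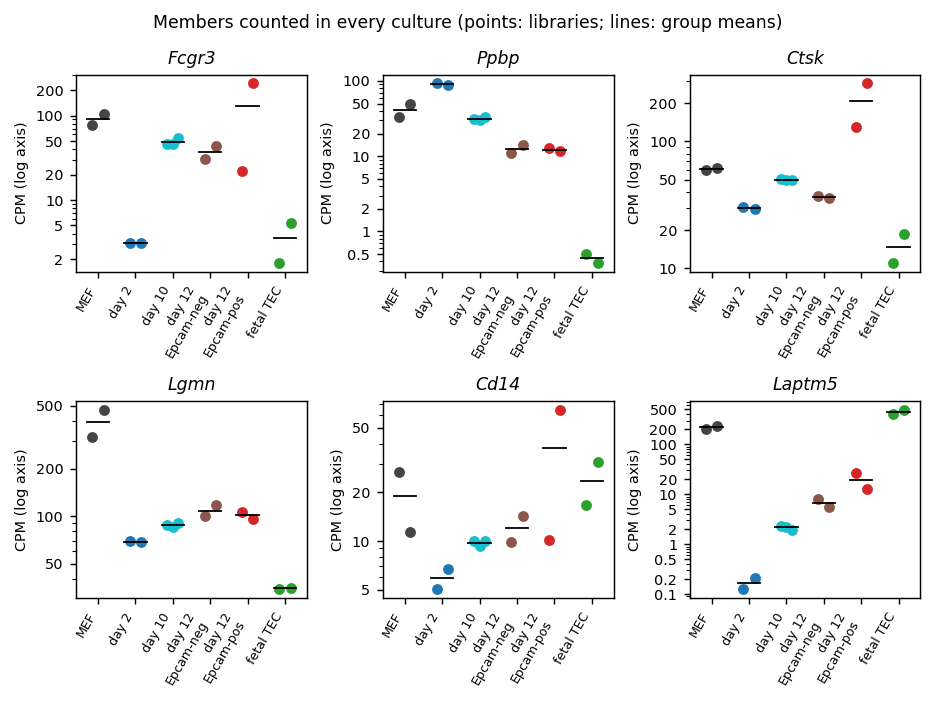
CPM (log axis) of 6 genes by group: each point is a library and each line a group mean. Fcgr3 drops at day 2 and stands at 45.5 to 53.7 CPM at day 10, Ppbp is highest at day 2, Ctsk and Lgmn stay counted in all groups, and Laptm5 rises from day 2 to day 10 and is highest in fetal TEC.

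The Epcam-positive pair disagreed on which genes of this set were counted. In replicate 1, 33 of the 35 genes had more than 3 counts, and in replicate 2, 13 did, with 21 at 0. The 23 restricted genes other than Fcgr3 and Ppbp summed to 284 and 7.09 CPM. With these 2 genes the 25 restricted ones summed to 319 and 259 CPM. All 35 genes summed to 710 and 797 CPM, so the whole set was not lower in replicate 2. C1qa stood at 25.4 and 0 CPM, Stab1 at 17 and 0 CPM, Mpeg1 at 36.3 and 0 CPM, and Csf1r at 19.4 and 0.436 CPM. Lyz2, at 76.1 and 4.72 CPM, was the restricted gene best counted in replicate 2 after Fcgr3 and Ppbp.

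The fraction of the MEF level varied between genes in replicate 1. Over the 21 restricted genes other than Fcgr3, Ppbp, Cd163 and Marco, replicate 1 held 2.82% (Mrc1) to 39.3% (Aif1, the calcium-binding protein Iba1) of the MEF mean, with a median of 10.9%. Replicate 2 held 0 to 0.891%, with a median of 0. Across 23 restricted genes the order of levels in replicate 1 followed that of MEF (Spearman rho 0.917, against 0.963 between the MEF libraries and 0.479 between replicate 1 and fetal TEC). This is a description across genes that share a library and their transcript lengths, without a test. Counts rose with transcript length in replicate 1 and in MEF but not in fetal TEC, so the last value carries that split.

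Other measures moved with this difference between the pair. The 10 fibroblast markers summed to 48900 CPM in replicate 1 and 7090 CPM in replicate 2, against 65700 and 78300 CPM in MEF. The 10 thymic epithelial markers summed to 4340 and 40300 CPM. Epcam stood at 4.8 and 30.6 CPM, and 5.03 to 5.53 CPM at day 10. Xist stood at 1.27 CPM in replicate 1 and 0 in replicate 2. Their part in the difference was not tested. The loss of transcript length dependence in replicate 2 also separates the pair.

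Against MEF 11 of 34 genes were called in Epcam-positive cells, 10 lower and 1 higher, beside 20.3% of all genes, and 6 to 33 with 1 library left out: 7 without MEF replicate 1, 6 without MEF replicate 2, 33 without Epcam-positive replicate 1 and 21 without replicate 2. Laptm5 (26.2 and 12.7 CPM; log2 -3.48 ± 0.42, adjusted p = 0.000787), Apoe (90.2 and 69.7 CPM; log2 -2.77 ± 0.43, adjusted p = 0.00301) and Lgmn (107 and 96.4 CPM; log2 -1.96 ± 0.27, adjusted p = 0.00156) were lower than in MEF. These 3 kept their calls whichever library was left out.

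Ctsk went the other way. At 131 and 286 CPM it was higher than in MEF (log2 1.78 ± 0.39, adjusted p = 0.0143, and up to 0.111 without an MEF library). Fcgr3 stood at 22.2 and 240 CPM, below both MEF libraries in one and above both in the other, and the LPS co-receptor Cd14 at 10.2 and 64.7 CPM against 26.6 and 11.4 CPM in MEF. No direction can be given for Fcgr3 (log2 0.52 ± 0.84, adjusted p = 0.676): its difference from MEF was called as a rise without replicate 1 (log2 1.40) and as a fall without replicate 2 (log2 -2.04).

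Against Epcam-negative cells, Apoe, Ctsk and Lyz2 (3 of 34 genes) were higher, against 0.259% of all genes called. Apoe stood at 90.2 and 69.7 CPM against 3.58 and 5.8 CPM (log2 4.09 ± 0.46, adjusted p = 0.02), with no overlap, and also above day 10 (2.31 to 2.92 CPM). Apoe lost the call in 8 of the 13 fits that left out 1 library, namely those without MEF replicate 1 or any day 2, day 10 or Epcam-negative library. Ctsk (adjusted p = 0.0476) and Lyz2 (adjusted p = 0.0453) kept theirs only without Epcam-positive replicate 1 or 2. The count of members called was 13 and 21 without them, and 0 or 1 without any other library. The Epcam-negative libraries were high in Xist, while the Epcam-positive ones held Y-linked reads. This comparison thus carries the difference in sex between the cells.

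**Figure D4:**
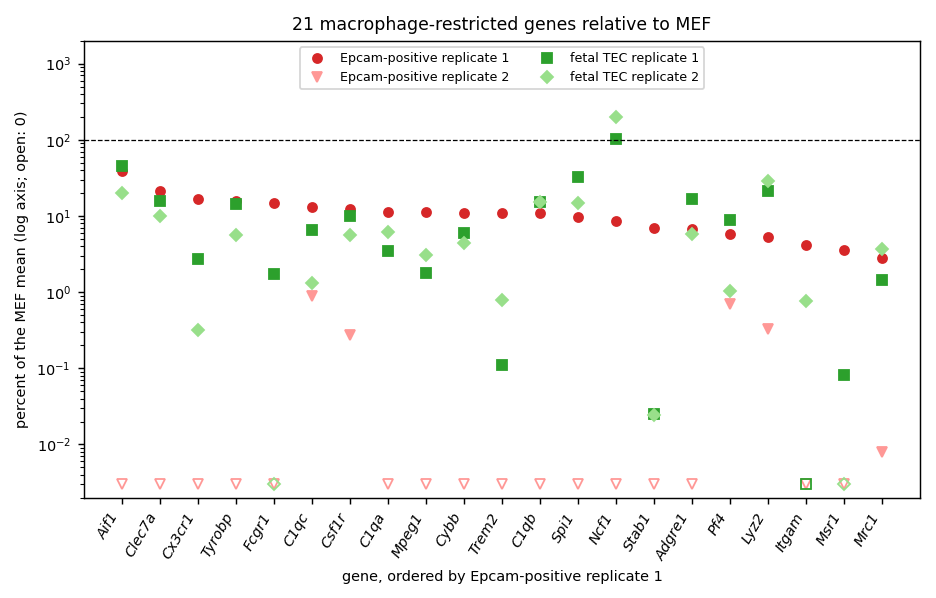
Level of 21 restricted genes in Epcam-positive and fetal TEC libraries as a percentage of the MEF mean (log axis, open symbols at 0, dashed line at 100%), ordered by Epcam-positive replicate 1. Replicate 1 lies in a band from 2.82% to 39.3%, replicate 2 is at 0 for most genes, and the fetal TEC libraries spread from 0 for Itgam, Fcgr1 or Msr1 to over 100% for Ncf1.

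Fetal TEC libraries carried a myeloid signature of another make. The 35 genes summed to 1900 and 1600 CPM and the 23 restricted ones to 477 and 626 CPM, of which Lyz2 gave 309 and 424 CPM. Against day 10 cells 25 of 34 genes were called, 21 higher and 4 lower, against 59.3% of all genes, and 16 without fetal TEC replicate 1. The median log2 difference was 5.88, or 5.08 with genes at 0 set to their bound, against 0.10 over all genes. The 4 that were lower were Ctsk, Lgmn, Fcgr3 and Ppbp.

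The genes that were higher in fetal TEC than at day 10 spanned the roles. Lyz2 (log2 11.80 ± 1.13, adjusted p = 8.32e-05) and Apoe (278 and 123 CPM; log2 6.28 ± 0.42, adjusted p = 1.45e-05) led the lysosomal and lipid genes. C1qb stood at 27.1 and 27.5 CPM against 0, at least 1297-fold higher over the group (adjusted p = 0.00874), C1qa at 7.77 and 13.8 CPM and C1qc at 12.5 and 2.47 CPM. Spi1 stood at 8.98 and 4.08 CPM, at least 309.5-fold higher (adjusted p = 0.013), and Csf1r at 12.2 ± 4.65 CPM (SD, n = 2; log2 5.02 ± 1.08, adjusted p = 0.00419). So the lineage factor and the growth factor receptor were both counted. Cd36 stood at 50.4 and 30.8 CPM (log2 7.16 ± 1.27, adjusted p = 0.00283).

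Compared with MEF the fetal set was uneven. Of 34 genes, 16 were lower and 3 higher, a share near the 57.8% of all genes called, from which nothing is read about the set; the median log2 difference was -3.41 against 0.18 over all genes, and the count was 7 to 30 with 1 library left out: 11 and 7 without MEF replicate 1 and 2, 10 and 8 without fetal TEC replicate 1 and 2, and 30 without either Epcam-positive library. Over the same 21 restricted genes the fetal libraries held medians of 6.57% and 4.37% of the MEF mean. Stab1 (0.0613 and 0.0609 CPM; log2 -11.94 ± 2.75, adjusted p = 0.00893, and up to 0.0612 without a fetal library) and Msr1 (0.123 and 0 CPM; log2 -11.10 ± 2.42, adjusted p = 0.00507) were close to the floor. Itgam stood at 0 and 0.588 CPM, Trem2 at 0.0306 and 0.223 CPM, and Fcgr1 at 0.214 and 0 CPM. Stab1, Msr1, Itgam, Trem2 and Fcgr1, well counted in MEF, were thus nearly absent where C1qb, Adgre1 (22.8 and 7.93 CPM) and Cybb (3.71 and 2.72 CPM) were present. Other genes of these classes were counted: Cd36 at 50.4 and 30.8 CPM, Mrc1 at 4.67 and 12.1 CPM, and Fcgr3 at 1.81 and 5.36 CPM. Counts rose with transcript length in MEF but not in fetal TEC, and this comparison carries that split.

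Ncf1 and Marco stood out in the opposite sense. Ncf1, the cytosolic activator of the oxidase, stood at 44.8 and 86.7 CPM, 102% and 198% of the MEF mean, with no difference called against MEF (log2 0.59 ± 1.39, adjusted p = 0.734) and a rise against day 10 (log2 9.79 ± 1.74, adjusted p = 0.00171). Its membrane partner Cybb, at 3.71 and 2.72 CPM, held 5.96% and 4.37% of the MEF mean. Marco stood at 2.44 and 20.7 CPM, above every culture (log2 6.85 ± 1.54 against MEF, adjusted p = 0.0182, and up to 0.118 without either MEF library or fetal TEC replicate 2). Ppbp was lower in fetal TEC than in any culture, at 0.505 and 0.385 CPM (log2 -6.50 ± 0.38 against MEF, adjusted p = 1.81e-05).

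Of the 4 pan-leukocyte genes, Coro1a and Laptm5 were called higher in fetal TEC than in MEF. Of all genes tested 31.5% were called higher, and nothing is read from this count. Coro1a stood at 507 and 206 CPM against 32.4 and 13.6 CPM in MEF (log2 3.95 ± 0.89, adjusted p = 0.0059, and 0.0558 without MEF replicate 2). Laptm5 stood at 399 and 492 CPM against 203 and 233 CPM (log2 1.03 ± 0.38, adjusted p = 0.0416, a call kept only without Epcam-positive replicate 1 or 2). Ptprc, the common leukocyte antigen CD45, stood at 82.3 and 10.6 CPM against 36.2 and 80.9 CPM (log2 -0.33 ± 1.53, adjusted p = 0.869), and Fcer1g at 28.5 and 11.6 CPM against 64.4 and 120 CPM (log2 -2.20 ± 1.67, adjusted p = 0.288). Ptprc and Coro1a were higher in fetal replicate 1, Laptm5 in replicate 2.

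Markers of other blood cells and of endothelium moved with these genes. All 4 CD3 chain genes were at 0 in the 11 culture and MEF libraries and summed to 497 and 269 CPM in fetal TEC. The 16 T cell genes summed to 1800 and 831 CPM there, against 15.2 to 97.6 CPM elsewhere. The 11 erythroid genes summed to 1350 and 802 CPM (at most 11.5 CPM elsewhere), the 12 monocyte or neutrophil genes to 177 and 184 CPM (at most 5.08) and the 10 dendritic cell genes to 137 and 120 CPM (at most 8.17). The dendritic cell integrin Itgax was at 0 in both fetal libraries. The 12 endothelial genes summed to 212 and 163 CPM in fetal TEC, against at most 36.3 CPM elsewhere. The part of these cells in the fetal levels was not tested.

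Genes of the same cell type outside the set were read by counts from lists. The lists, like the members, were chosen with earlier results of these data known. Their counts are a description and not an independent check of the set. Of 51 other myeloid surface and signalling genes, 41 were lower at day 10 than in MEF and 0 higher, beside 16.0% of all genes called in either direction, with a median log2 difference of -10.09 (-8.83 with bounds). Itgb2, the beta chain that pairs with Itgam, stood at 50.4 and 54.6 CPM in MEF and at most 0.231 CPM at day 10 (log2 -8.57 ± 1.17, adjusted p = 0.00126), and Lcp1, the actin bundler of leukocytes, at 312 and 479 CPM and at most 0.436 CPM (log2 -10.53 ± 1.37, adjusted p = 0.000952). In fetal TEC against day 10, 31 of the 51 were higher and 4 lower, beside 59.3% of all genes called in either direction. Itgb2 stood at 68.1 and 65.7 CPM there, above MEF, and Itgam at 0 and 0.588 CPM. The part of other leukocytes in the level of Itgb2 was not tested.

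The transcription factors divided. Of 14 listed 12 were tested, and at day 10 Irf8, Ikzf1 and Tfec were lower than in MEF and Klf4 higher. Irf8, a factor of monocytes and dendritic cells, stood at 14.1 and 7.02 CPM in MEF, at most 0.0769 CPM at day 10 (log2 -8.78 ± 1.78, adjusted p = 0.00947), and 259 and 329 CPM in fetal TEC. Klf4, common to myeloid and epithelial cells, stood at 319 to 330 CPM at day 10 against 50.9 and 41.1 CPM (log2 2.83 ± 0.48, adjusted p = 0.00402).

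Among 36 tissue macrophage genes, of which 35 were in the table and 29 tested, 14 were lower and 3 higher at day 10 than in MEF (median log2 -5.32, or -4.65 with bounds). Gpnmb, a lysosomal glycoprotein, went from 393 and 528 CPM to 17.6, 17.7 and 19.7 CPM (log2 -4.65 ± 0.41, adjusted p = 0.000138). Lyve1, known from lymphatic endothelium and perivascular macrophages, went from 0.0415 and 0 CPM to 25.4, 24.8 and 24.7 CPM (log2 9.95 ± 1.20, adjusted p = 0.000649) in cells where C1qa and Adgre1 were at 0. Of 15 widely expressed lysosomal genes, 3 were lower and 0 higher at day 10 (median log2 -0.45), a share near the 16.0% of all genes called.

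The Csf1r ligands were counted also in libraries with Csf1r below 1 CPM. Csf1 stood at 170 and 97.9 CPM in MEF, 460 and 444 CPM at day 2, 28.2 to 39.7 CPM at day 10, and 13.3 and 7.02 CPM in fetal TEC. The day 2 libraries were the highest without passing against MEF (log2 1.75 ± 0.71, adjusted p = 0.226). Il34 stood at 0.261 to 11.5 CPM in all libraries, highest in fetal TEC replicate 2.

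Limits on single genes remain. Of the 35 genes, 9 overlap another annotated gene, among them Stab1 (Nt5dc2), Ncf1 (Gtf2ird2), Coro1a (Bola2), Csf1r (Hmgxb3) and Cx3cr1 (several), and whether counting used strand is not stated, so reads of such pairs cannot be told apart.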

How the data were processed

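RNA was prepared with a column kit and DNase, per the labels' protocols. The authors deposited whole-number read counts per gene symbol. FastQC, Trimmomatic, HISAT2, SAMtools, StringTie and DESeq2 on build mm10 are named, without settings, per the submitters' processing notes. Counts were scaled to CPM with TMM factors (0.71 to 1.16). Genes were filtered by filterByExpr (17004 kept, 34 of the 35 members; Cd163 was not) and tested by edgeR 4.0.16's quasi-likelihood test in R 4.3.3, the 13 libraries entering a single fit with a term for each group, adjusted by Benjamini-Hochberg over all genes tested and called at 0.05. The script was tested on simulated counts. Transcript lengths and positions came from GENCODE M21 for 95.7% of symbols, and promoters from RefSeq. A fold against a group at 0 was taken against 3 counts over that group, and covers counting error only. Alternatives were DESeq2 1.42.0, other scalings and filters, only the groups compared, a length offset, a replicate block and leaving out each library. Every member is given by its level; full statistics follow a rule that takes, in each role group, the member with the highest level, the one with the largest change and any that goes against the rest, and up to 4 genes of smallest p per other list. The members and lists were chosen with earlier results of these data known. Comparisons with MEF share the MEF libraries.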

Additional observations from a re-analysis of the deposited data

How the results depend on the processing

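The number of members called depended on the fit. At day 2 against MEF (18 called) DESeq2's Wald test called 31, a fit of only these groups 32, a fit without the 3 libraries that lack length dependence 33 and the replicate block 11. At day 10 against MEF (28) the replicate block called 14. From day 2 to day 10 (3) DESeq2 called 8, only these groups 14, without the 3 libraries 12 and the length offset 5. In Epcam-negative cells against MEF (22) the block called 14. In Epcam-positive cells against MEF (11) DESeq2 called 19, only these groups 0, without the 3 libraries 31 and the block 7; against Epcam-negative cells (3) library size alone called 0, DESeq2 13, only these groups 0, without the 3 libraries 27 and the block 0, where edgeR's main fit had 24 members at an unadjusted p under 0.05. For fetal TEC against MEF (19) only these groups gave 29. Leaving out 1 library at a time gave 5 to 33 at day 2, 14 to 29 at day 10, 1 to 9 from day 2 to day 10, 6 to 32 and 6 to 33 for Epcam-negative and Epcam-positive cells against MEF, 0 to 21 between these, 7 to 30 for fetal TEC against MEF and 16 to 31 against day 10, where fetal TEC replicate 1 gave the 16. A fit of only 2 groups of 2 libraries with the Epcam-positive pair estimates the spread from 2 degrees of freedom. Of the log2 differences followed gene by gene, only that of Fcgr3 between Epcam-positive cells and MEF (0.52) reversed, to -2.05 without the 3 libraries, -0.25 with the length offset and -2.04 without Epcam-positive replicate 2, against 1.40 without replicate 1. The cause of the other moves was not tested. Samples of the same replicate number did not deviate together (correlations -0.215 to 0.116), so the numbers were not taken as pairs. A gene at 0 is limited by the floor of 3 counts.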
